A study of Mus musculus with 53 samples.

Results

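The transcripts of the metabotropic glutamate receptors were examined across 4 brain regions, in mice with and without a spinocerebellar ataxia type 3 (SCA3) transgene. The receptors were chosen from the rows of the count table whose symbol is Grm followed by a digit, and 6 of the 12372 genes are described: Grm2, Grm3, Grm4, Grm5, Grm7 and Grm8. All 6 had passed the authors' filter of an average above 4 CPM (counts once every library is scaled to the same total), and other members of the family are not analysed here. RNA sequencing had been carried out on brainstem, cerebellum, cortex and striatum, to ask how expanded ataxin-3 alters gene expression in each region.

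SCA3 mice were of the MJD84.2 line, hemizygous for a transgene that holds the complete human ATXN3, its CAG repeat expanded, and is read from the human promoter in all tissues. Their mouse Atxn3 gene is intact. Wild-type mice were of the C57BL/6 strain, and breeding paired hemizygous with wild-type mice. Whether the wild-type mice studied came from these crosses was not stated. All mice were untreated males, had been through motor testing and were killed at 17.5 months (74 to 77 weeks), before which no ataxia had been seen. There were 14 mice in all. Brainstem gave 8 wild-type libraries and 6 from SCA3 mice, striatum 8 and 5, and both cerebellum and cortex 7 and 6.

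Metabotropic glutamate receptors are G protein-coupled receptors for glutamate, the main excitatory transmitter of the brain, and set how strongly synapses respond rather than carrying the fast signal. Group I receptors, of which Grm5 is described, sit mainly on the receiving side of the synapse and act through Gq and phospholipase C, while group II (Grm2 and Grm3) and group III receptors (Grm4, Grm7 and Grm8) act through Gi/o, lower cyclic AMP and mostly restrain transmitter release. Grm4 is the receptor of the terminals of cerebellar granule cells, Grm5 is abundant in striatal projection neurons, and Grm3 is made by astrocytes as well as neurons.

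Libraries held between 31.7 and 76.7 M counts (M for mega), and each receptor had at least 135 counts in every library. Human ATXN3 was outside the mouse annotation used for counting, and mouse Atxn3, which is intact in both genotypes, had means of 43.6, 37.1, 48.4 and 58.0 CPM in SCA3 and 43.4, 34.4, 43.9 and 46.2 CPM in wild-type brainstem, cerebellum, cortex and striatum. Its genotypes overlapped in all regions but striatum (54.3 to 64.8 against 40.1 to 53.7 CPM). The same mice gave several regions. The regions were checked against marker lists, scored per library as the mean log2 CPM of a list. Cerebellar libraries scored 8.74 to 9.32 for granule cells against at most 5.65 elsewhere. Outside cerebellum, the brainstem libraries of SCA3 mouse 7267054 (5.65) and wild-type mouse 9083373 (5.31) scored highest, and the others at most 4.44. These libraries also had the highest brainstem levels of Grm4 (61.8 and 57.0 CPM), and the part of cerebellar tissue in them was not tested. Striatal libraries scored 7.60 to 9.68 for striatal projection neurons, and cortical libraries reached 5.97 to 8.50 on that list, in which striatal tissue and expression in cortex itself cannot be told apart. Of 10 hindbrain markers none was in the table, so brainstem could not be checked in this way. Thalamic markers were high in 4 brainstem libraries (scores of 5.70 to 6.16 in wild-type mice 7267055 and 9083373 and SCA3 mice 9083514 and 9083515, against at most 5.37 in the others) and in the striatal libraries of wild-type mice 7267058 and 7267059 (6.95 and 7.11, against at most 5.41). Tests that use these 2 regions were therefore also run without those 6 libraries.

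On GRCm38, the receptor genes lie on 5 chromosomes and span between 11576 bases (Grm2, chromosome 9, 106644534 to 106656109) and 921882 bases (Grm7, chromosome 6, 110645349 to 111567230). Grm3 occupies chromosome 5, 9485236 to 9725352, and Grm8, on the same chromosome as Grm7, 27275121 to 28135146. Grm4 lies on chromosome 17 (27422387 to 27513826) and Grm5 on chromosome 7 (87583981 to 88135063). Counting ignored strand, and exons of Grm2 share 470 bases with the antisense gene Gm28111 and those of Grm7 share 130 bases with the antisense gene Gm20387, so these counts cannot be assigned to a strand.

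The receptor whose level differed between genotypes within a region was Grm3, and the 250 bases before its RefSeq start (GRCm38.p6, chr5:9725353-9725602, minus strand) are shown for that reason. The GC box GGGCGG, searched on both strands, is in capitals and ends the window, at the edge of the transcript.
Grm3 promoter: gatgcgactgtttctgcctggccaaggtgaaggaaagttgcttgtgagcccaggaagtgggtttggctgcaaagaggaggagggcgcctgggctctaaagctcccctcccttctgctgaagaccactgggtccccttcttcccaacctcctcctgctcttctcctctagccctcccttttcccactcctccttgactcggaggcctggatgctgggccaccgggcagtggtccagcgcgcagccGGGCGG
This window had a GC content of 62.4% and 8 CpG sites, against medians of 52.4% and 6 over 32851 windows of the same length. A GC box was found in 32.7% of these windows. The letters TGACG (the core of a CREB site, held by 17.8% of windows) and TATAAA (12.4%) were not in it. Windows were found for 4 receptors, Grm2, Grm3, Grm7 and Grm8.

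The receptors differed in where they were highest in wild-type mice, and Grm3, Grm5 and Grm7 shared the order striatum, cortex, brainstem, cerebellum. Grm4 was highest in cerebellum, Grm5, Grm3 and Grm7 in striatum, Grm2 in cortex and Grm8 in brainstem. Regions were compared in pairs among wild-type mice with edgeR's likelihood ratio test, with the false discovery rate (FDR) taken over all genes by the Benjamini-Hochberg method and genes below 0.05 called. Most genes of the table differ between regions, so these counts are read against that background. Of the 6 receptors, 5 were called between brainstem and cerebellum (72.6% of all genes), 5 between brainstem and cortex (65.4%), 5 between brainstem and striatum (64.2%), 5 between cerebellum and cortex (69.7%), 5 between cerebellum and striatum (69.5%) and 3 between cortex and striatum (34.4%). Without the libraries of high thalamic score, 4 of these 36 comparisons changed their call, and each is given with its receptor.

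**Figure D1:**
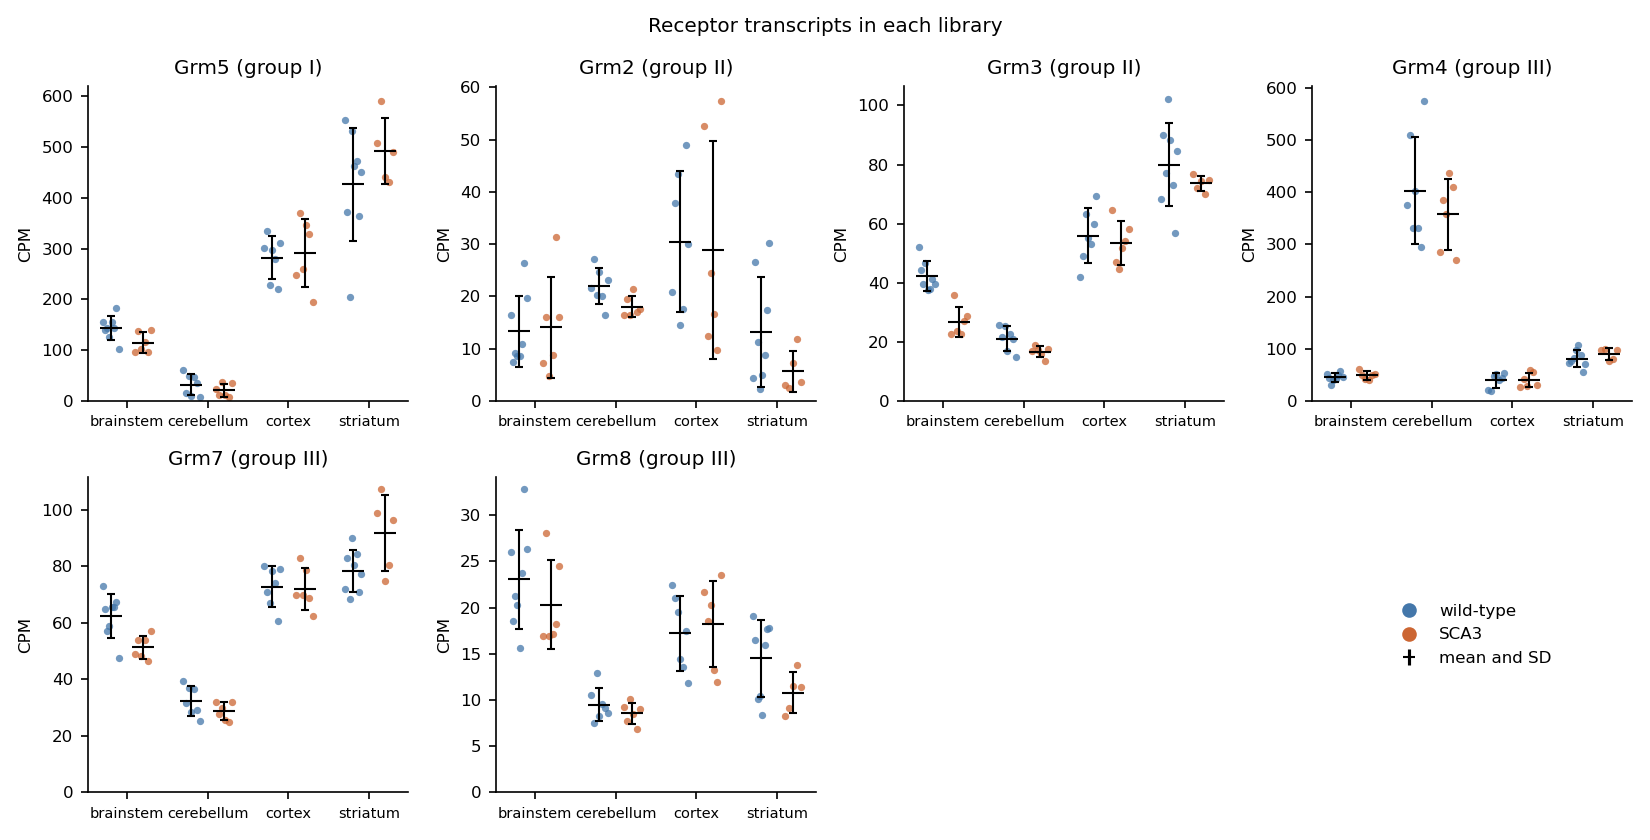
Points give the level of each receptor in CPM in single libraries by region, blue for wild-type and orange for SCA3, with black bars for the group mean and SD. Grm3 in brainstem is the one panel and region in which no SCA3 point reaches the wild-type points (22.6 to 35.7 against 37.6 to 51.9 CPM).

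The group I receptor Grm5 had 427 ± 112 CPM in wild-type striatum (SD, n = 8; lowest 204, median 457, highest 553), 282 ± 42.7 in cortex (n = 7), 144 ± 23.6 in brainstem (n = 8) and 32.2 ± 21.3 in cerebellum (n = 7). Its cerebellar level was lower than that of striatum by 3.73 on the log2 scale (SE 0.29, FDR 3.2e-29). Striatum and cortex, the neighbours at the top, were not told apart (FDR 0.093), and were once mouse 7267059, with the lowest striatal level (204 CPM), was left out (FDR 0.042) or without the libraries of high thalamic score (FDR 0.0489).

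Within cerebellum Grm5 varied over a wide range in both genotypes, from 7.70 to 60.1 CPM. The 6 highest libraries (34.6 CPM and above) had thalamic scores of 5.43 to 5.70 and projection neuron scores of 3.67 to 4.04, and the others had scores of 4.68 to 5.35 and 2.67 to 3.39. The thalamic markers include Zic1, which is also on the granule cell list. Their summed level ran from 1569 to 1936 CPM in cerebellum and from 740 to 1268 CPM in brainstem. The part of tissue make-up in the Grm5 values, from within or outside the cerebellum, was not tested.

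Of the group II receptors, Grm2 varied widely between libraries of 1 region. It had 30.5 ± 13.5 CPM in wild-type cortex (SD, n = 7; lowest 14.5, median 30.1, highest 49.1), 21.9 ± 3.44 in cerebellum (n = 7), 13.4 ± 6.78 in brainstem (n = 8) and 13.2 ± 10.5 in striatum (n = 8). Cortex exceeded striatum by 1.20 (SE 0.41, FDR 0.0142) and brainstem by 1.19 (SE 0.41, FDR 0.00715) on the log2 scale, and no neighbours in the order differed (FDR 0.11 to 0.98). Over the 13 cortical libraries of both genotypes, the 5 highest (37.9 CPM and above) had scores of 6.97 to 7.29 for cortical glutamatergic neurons and the rest 5.0 to 6.61. The step from cortex to striatum was lost without mouse 9082857 (FDR 0.089). With the mouse as a fixed replicate block in edgeR, Grm2 was also called between cerebellum and brainstem (FDR 0.0342) and between cerebellum and striatum (FDR 0.0131). Without the libraries of high thalamic score both were called too (FDR 0.0224 and 0.0371). Grm3 had 80.0 ± 14.2 CPM in wild-type striatum (SD, n = 8; lowest 56.9, median 80.8, highest 102), 56.0 ± 9.18 in cortex (n = 7), 42.3 ± 5.0 in brainstem (n = 8) and 21.1 ± 4.09 in cerebellum (n = 7). Every step of that order passed the test, from striatum over cortex (0.52 on the log2 scale, SE 0.11, FDR 7.77e-05) and cortex over brainstem (FDR 0.000869) to brainstem over cerebellum (1.00, SE 0.11, FDR 5.18e-17).

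Of the group III receptors, Grm4 was concentrated in cerebellum, with 403 ± 103 CPM in wild-type cerebellum (SD, n = 7; lowest 295, median 376, highest 575), 81.2 ± 15.9 in striatum (n = 8), 45.0 ± 8.06 in brainstem (n = 8) and 39.8 ± 14.4 in cortex (n = 7). No cerebellar library overlapped any library of another region, and cerebellum exceeded striatum by 2.31 on the log2 scale (SE 0.18, FDR 4.77e-33). Brainstem and cortex were not told apart (FDR 0.40). Over the 13 cortical libraries of both genotypes, the 5 with the lowest projection neuron scores (5.97 to 7.16) had 19.0 to 31.3 CPM of Grm4 and the other 8 (7.50 to 8.50) had 40.7 to 58.5 CPM, and the part of tissue make-up in the cortical level was not tested. Grm7 was more even, with 78.3 ± 7.46 CPM in wild-type striatum (SD, n = 8), 72.7 ± 7.18 in cortex (n = 7), 62.5 ± 7.73 in brainstem (n = 8) and 32.4 ± 5.31 in cerebellum (n = 7). Cerebellum stood furthest apart, 0.95 below brainstem on the log2 scale (SE 0.09, FDR 6.83e-24), and striatum and cortex were not told apart (FDR 0.37). Grm8 was low throughout, with 23.1 ± 5.37 CPM in wild-type brainstem (SD, n = 8), 17.2 ± 4.05 in cortex (n = 7), 14.5 ± 4.16 in striatum (n = 8) and 9.50 ± 1.78 in cerebellum (n = 7). Its step from brainstem to cortex (FDR 0.0235) was lost without mouse 9083372, 9083373 or 9083375 (FDR 0.088 to 0.12) and without the libraries of high thalamic score (0.29 on the log2 scale against 0.42, FDR 0.16), and that of Grm7 from cortex to brainstem (FDR 0.0239) without mouse 9083371 or 9083375 (FDR 0.051 and 0.13).

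To set the receptors beside each other, CPM were divided by exon length in kilobases (3049 bases for Grm3 to 8143 for Grm5), and each receptor was given as a share of the summed CPM per kb of these 6, so that the shares leave out the rest of the family. In wild-type cerebellum Grm4 made up most of this sum, at 73.1% ± 7.31 (SD, n = 7), and no other receptor held more than 7.95% on average. In wild-type striatum Grm5 led with a share of 43.8% ± 7.21 (n = 8), ahead of Grm3 (22.4% ± 3.77) and Grm7 (15.6% ± 1.62). Cortex was like striatum in its order at the top, with Grm5 at 39.3% ± 5.31 and Grm3 at 20.8% ± 2.88 (n = 7). Brainstem was the most mixed, as Grm5, Grm7 and Grm3 each held between 22.2% and 28.0% on average.

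**Figure D2:**
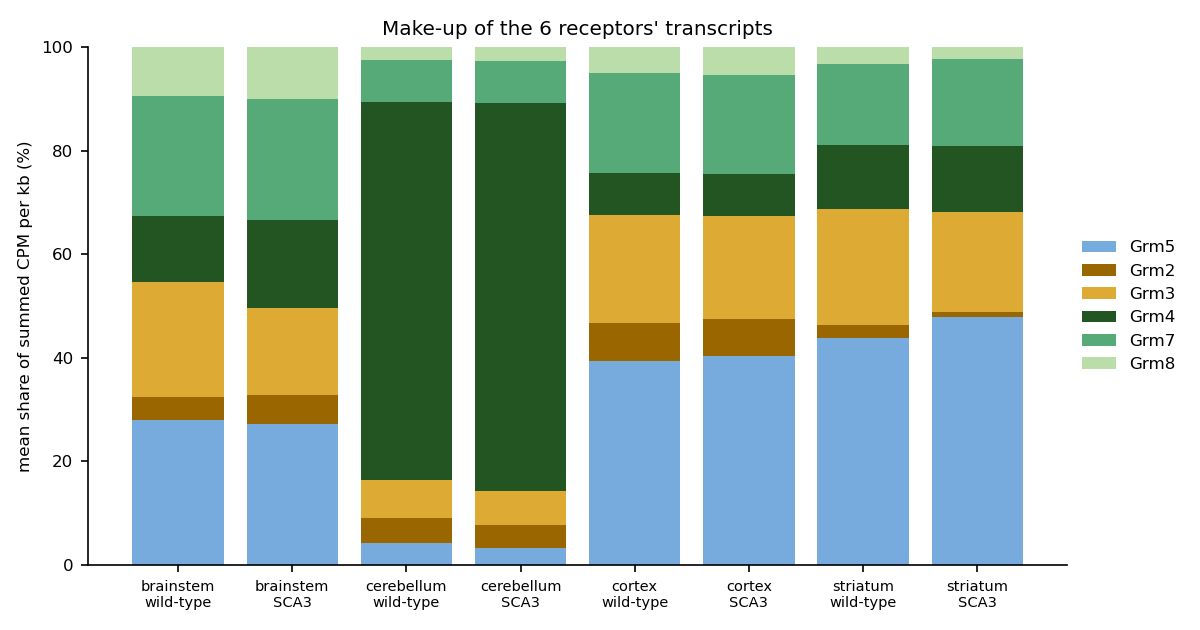
Stacked bars give each receptor's mean share of the summed CPM per kb of the 6 receptors described, in percent, by region and genotype, with group I in blue, group II in yellow and brown and group III in green. Grm4 fills most of the cerebellar bars, and the share of Grm3 in brainstem is 22.2% in wild-type and 16.9% in SCA3.

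SCA3 mice were then compared with wild-type mice in each region, in 1 fit of all 53 libraries. In brainstem, Grm3 fell in SCA3. It had 26.8 ± 5.06 CPM in SCA3 (SD, n = 6; lowest 22.6, median 25.3, highest 35.7) against 42.3 ± 5.0 CPM in wild-type libraries (n = 8; lowest 37.6, median 40.4, highest 51.9). The groups did not overlap, which held for 1.38% of all genes, and the SCA3 library nearest to wild-type was that of mouse 7267056. The log2 fold change was -0.66 (SE 0.12, FDR 2.14e-05), a level 36.7% lower. Grm3 was the 1 receptor of 6 called in brainstem, where 1.92% of all genes were called and 1.15% were called lower in SCA3. In bulk tissue, fewer cells of a type and less RNA per cell cannot be told apart.

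The call of Grm3 in brainstem was made in all 29 alternative fits, with log2 fold changes from -0.57 to -0.86 and FDRs up to 0.0145, the highest among mice of the largest series of mouse numbers. Without the 4 libraries of high thalamic score it was -0.64 (FDR 0.00276). Astrocyte markers were lower too: 12 of 12 were below 0 in SCA3 brainstem and 5 were called (Slc1a2, Gja1, Slc4a4, Fgfr3 and Aldoc). Their summed level ran from 4237 to 5770 CPM in SCA3 and from 4801 to 9652 CPM in wild-type libraries. Of the 12, Slc1a3 lay nearest to 0 (-0.03, SE 0.13, FDR 0.96). Mature oligodendrocyte markers were also below 0 in 12 of 12, with 4 called, and microglia markers in 8 of 8, with 1 called. Oligodendrocyte precursor markers were above 0 in 6 of 8, with 2 called. RNA integrity numbers (RIN) were also higher in SCA3 (7.4 to 8.0 against 6.3 to 7.6). Within brainstem alone, the Grm3 difference was -0.86 with the astrocyte score (FDR 3.5e-05) and -0.72 with RIN (FDR 0.000557) as a covariate. Astrocyte scores ran from 7.67 to 8.00 in SCA3 and from 7.82 to 8.58 in wild-type brainstem, with 1 wild-type library (mouse 9083373) inside the SCA3 range, and the part of astrocyte content in the Grm3 difference was not tested.

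**Figure D3:**
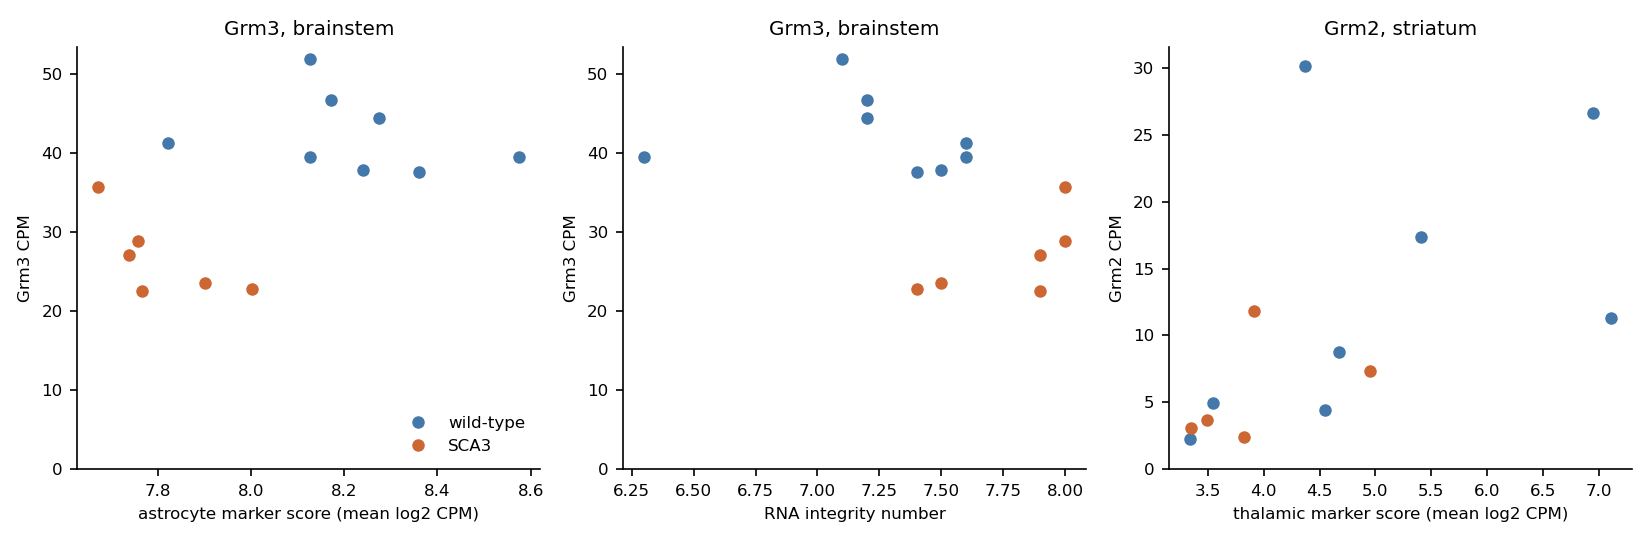
Each point is a library, blue for wild-type and orange for SCA3, with the level of Grm3 in brainstem in CPM against the astrocyte marker score and against RIN, and the level of Grm2 in striatum against the thalamic marker score. Astrocyte scores overlap at 1 wild-type library (7.82), and the wild-type striatal library with the highest Grm2 level (30.2 CPM) has a thalamic score of 4.37.

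Grm7, which sits at the release site of many terminals, had 51.3 ± 4.06 CPM in SCA3 brainstem (SD, n = 6; lowest 46.6, median 51.3, highest 57.0) against 62.5 ± 7.73 CPM in wild-type brainstem (n = 8; lowest 47.5, median 65.2, highest 72.8). Wild-type mouse 9083375 lay within the SCA3 range and the other 7 lay above it. The difference of -0.28 (SE 0.09, log2) did not pass over all genes (FDR 0.093). It passed without mouse 9083375 (FDR 0.0162), in the brainstem libraries alone (FDR 0.0402) and there with the thalamic score as a covariate (FDR 0.00767), and it was -0.23 (FDR 0.57) without the libraries of high thalamic score. The remaining 4 receptors ranged from -0.32 (Grm5) to 0.12 (Grm4) in brainstem, with FDRs from 0.70 to 0.97, and from -0.26 (Grm5) to 0.20 (Grm4) without the libraries of high thalamic score, with FDRs from 0.95 to 0.99. Grm5 passed with the thalamic score as a covariate (FDR 0.0359) and Grm8 with the astrocyte score as a covariate (FDR 0.0155), each in that fit alone. The median over the 6 receptors was -0.23, against 0.00 over all genes.

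**Figure D4:**
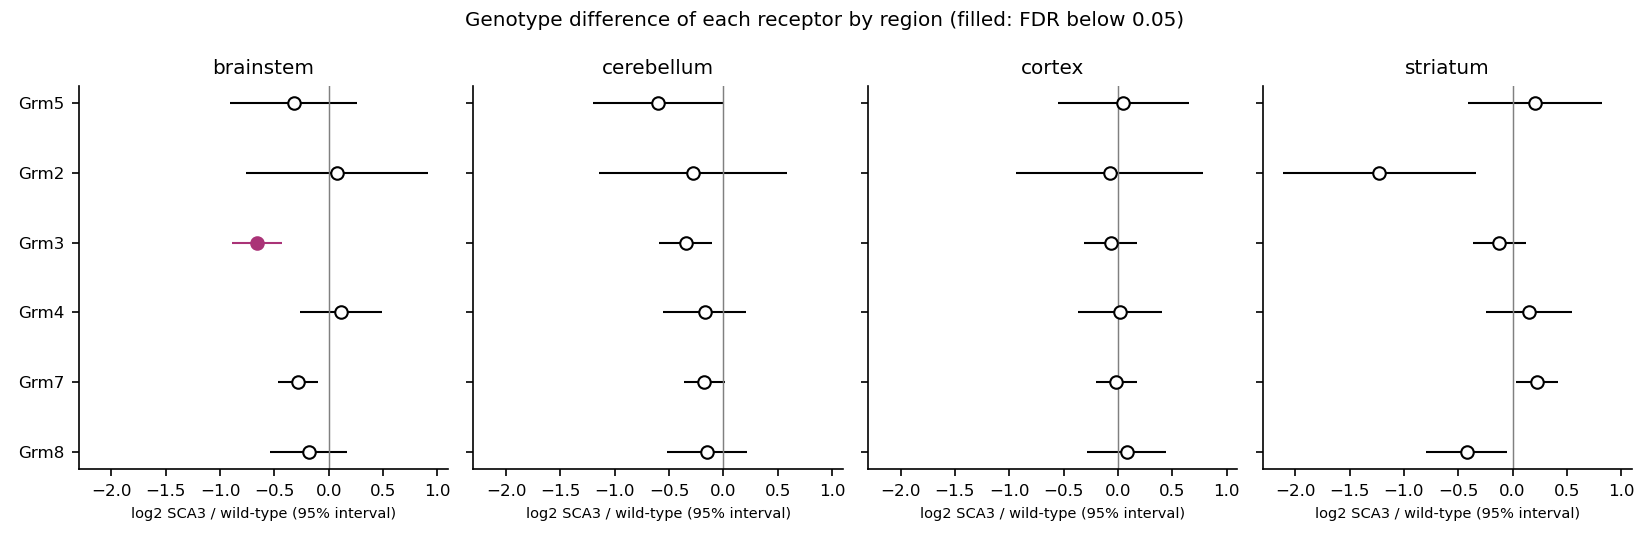
Points give the log2 ratio of SCA3 to wild-type for each receptor in each region, with 95% intervals from the fit, and the filled point marks an FDR below 0.05. Grm3 in brainstem (-0.66) is the filled point, and all 6 receptors lie below 0 in cerebellum.

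In cerebellum no receptor was called by edgeR's likelihood ratio test (0.0647% of all genes were), by its quasi-likelihood test or by DESeq2, and 1 had an unadjusted p below 0.05 (1.66% of all genes). This was Grm3, with 16.6 ± 1.86 CPM in SCA3 (SD, n = 6; lowest 13.4, median 17.1, highest 18.8) against 21.1 ± 4.09 CPM in wild-type libraries (n = 7; lowest 14.8, median 21.5, highest 25.8). The groups overlapped at the 2 lowest wild-type libraries, and the log2 fold change was -0.35 (SE 0.12, FDR 1.00). All 6 receptors had a fold change below 0, as did 52.8% of all genes, with a median of -0.23 against 0.00. Grm5 had the lowest, at -0.60 (SE 0.31, 95% interval -1.20 to 0.01), and its wide range within both genotypes is given above. On leaving out 1 mouse, the Grm5 fold change ran from -0.84 to -0.37. The 2 lowest wild-type libraries for Grm3 (mice 9083371 and 9083375, 16.8 and 14.8 CPM) had the lowest wild-type thalamic scores (4.84 and 4.68), and of the 6 cerebellar libraries with the highest scores 4 were wild-type and 2 SCA3. With the thalamic score as a covariate within cerebellum, all 6 fold changes were still below 0, at -0.26 for Grm3 (FDR 0.19), -0.15 for Grm5 and -0.10 for Grm7 (FDR 1.00 for both). Endothelium markers were below 0 in 6 of 6 and choroid plexus markers above 0 in 3 of 3 measured, with 0 called in either list. Choroid plexus scores ran from 6.15 to 7.56 in SCA3 and from 2.04 to 7.57 in wild-type cerebellum. The part of tissue make-up in the receptor differences was not tested. Grm4, the most abundant of the 6 in cerebellum, had a log2 fold change of -0.17 (95% interval -0.56 to 0.21). It ran from -0.24 to -0.066 on leaving out 1 mouse.

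In cortex no receptor was called by edgeR's likelihood ratio test (0.154% of all genes were), by its quasi-likelihood test or by DESeq2, and 0 had an unadjusted p below 0.05 (4.07% of all genes). Fold changes lay between -0.08 and 0.08 on the log2 scale. The intervals were narrowest for Grm7 (95% interval -0.20 to 0.17) and Grm3 (-0.31 to 0.17) and widest for Grm2 (-0.94 to 0.79), the receptor that varied most between cortical libraries.

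In striatum no receptor was called by edgeR's likelihood ratio test, where 7.54% of all genes were, by its quasi-likelihood test or by DESeq2, and 3 had an unadjusted p below 0.05 (23.2% of all genes): Grm2, Grm7 and Grm8. Grm2, a presynaptic receptor of cortical and thalamic neurons, had 2.39, 3.07, 3.68, 7.34 and 11.9 CPM in the 5 SCA3 libraries and 13.2 ± 10.5 CPM in wild-type libraries (SD, n = 8; lowest 2.25, median 10.04, highest 30.2). Values of both genotypes were intermingled at the low end, and 3 wild-type libraries (mice 9083373, 7267058 and 9083375) lay above every SCA3 library. The log2 fold change was -1.22 (SE 0.45, FDR 0.082), and it passed without mouse 9082857, 9083371 or 9083514 (FDR 0.0267, 0.0423 and 0.0163). It was -0.999 (FDR 0.27) without the 2 libraries of high thalamic score. Within striatum alone it was -0.62 with the thalamic score (FDR 0.91) and -0.32 with the projection neuron score (FDR 1.00) as a covariate. The highest library of each genotype (wild-type mouse 9083375, 30.2 CPM, and SCA3 mouse 9083514, 11.9 CPM) also had the highest scores for cortical glutamatergic neurons (6.13 and 5.91). The part of tissue make-up in the Grm2 difference was not tested.

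Grm8 in striatum had 8.21, 9.13, 11.4, 11.5 and 13.8 CPM in SCA3 and 14.5 ± 4.16 CPM in wild-type libraries (SD, n = 8; lowest 8.40, median 16.2, highest 19.1). The wild-type libraries formed a low set of 3 within the SCA3 range and a high set of 5 above it, and the log2 fold change was -0.42 (SE 0.19, FDR 0.16), or -0.46 (FDR 0.21) without the libraries of high thalamic score. It was -0.22 with the projection neuron score as a covariate within striatum (FDR 1.00), -0.23 in libraries with a RIN of at least 7 (FDR 0.66) and -0.25 among mice of the largest series of mouse numbers (FDR 0.87). Grm7 in striatum had 74.9, 80.4, 96.3, 98.9 and 107 CPM in SCA3 and 78.3 ± 7.46 CPM in wild-type libraries (SD, n = 8; lowest 68.4, median 78.8, highest 89.8). Its 3 highest SCA3 libraries lay above all wild-type libraries, and its log2 fold change was 0.23 (SE 0.10, FDR 0.13), or 0.21 (FDR 0.31) without the libraries of high thalamic score. Within striatum it was 0.11 with the projection neuron score (FDR 1.00) and 0.15 with the astrocyte score (FDR 0.75) as a covariate. The same 3 SCA3 libraries had projection neuron scores of 9.51 to 9.63, against 7.60 to 9.68 in wild-type, and the part of tissue make-up in the difference was not tested.

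Grm5, the leading striatal receptor, had 431, 440.3, 491, 508 and 591 CPM in SCA3 and 427 ± 112 CPM in wild-type libraries (SD, n = 8; lowest 204, median 457, highest 553). The groups overlapped widely and the log2 fold change was 0.21 (95% interval -0.41 to 0.82), or 0.058 (FDR 0.96) without the libraries of high thalamic score. Grm3 and Grm4 had log2 fold changes of -0.12 and 0.15, or -0.099 and 0.14 without them.

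The combined test, which asks for a genotype effect in any region, called 2 of 6 receptors (4.73% of all genes): Grm3 (FDR 1.4e-05) and Grm7 (FDR 0.0364). The call of Grm3 was made in every alternative fit. That of Grm7, whose fold change was -0.28 in brainstem and 0.23 in striatum, was lost in 6 of the 10 alternatives other than leaving out a mouse, among them the quasi-likelihood test (FDR 0.0695), limma-voom without and with the mouse as a replicate block (FDR 0.0942 and 0.0747) and that without the libraries of high thalamic score (FDR 0.26), and on leaving out any of 10 of the 14 mice (FDR up to 0.14). The test of whether the genotype effect differs between regions called no receptor by edgeR's likelihood ratio test, where 0.218% of all genes were called, although 2 had an unadjusted p below 0.05, as had 9.09% of all genes (Grm7, FDR 0.14, and Grm3, FDR 0.17), and none by the quasi-likelihood test. The Grm3 fold changes of -0.66, -0.35, -0.07 and -0.12 in brainstem, cerebellum, cortex and striatum are therefore not shown to differ from each other.

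The genes through which the receptors act were followed from 6 lists of 5 to 17 genes. In brainstem, 2 of their 67 measured genes were called (2.99%, beside 1.92% of all genes), both among the 8 of glutamate release and uptake and both lower. Both are best known from astrocytes, and Slc1a2 is 1 of the 12 astrocyte markers above. Slc1a2, the main astrocytic glutamate transporter, had 1376 ± 160.1 CPM in SCA3 (SD, n = 6; 1178 to 1551) against 2439 ± 513 CPM in wild-type libraries (n = 8; 1582 to 3230), a log2 difference of -0.83 (SE 0.12, FDR 2.42e-08). Glul, glutamine synthetase, had 1208 ± 120.5 CPM (1099 to 1403) against 1869 ± 199 CPM (1590 to 2210), a log2 difference of -0.63 (SE 0.10, FDR 9.73e-08). In neither did the groups overlap, and both calls were made without the libraries of high thalamic score (-0.93 and -0.63). In cerebellum and cortex no gene of any of the 6 lists was called.

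In striatum 13 of the 67 list genes were called (19.4%, beside 7.54% of all genes), 2 higher and 11 lower in SCA3, with at least 1 from each list. In the Gq branch of group I receptors, Plcb4, a phospholipase C, fell by 1.33 on the log2 scale (SE 0.31, FDR 0.00386) and Trpc1, a cation channel, rose by 0.20 (FDR 0.0466). In the Gi/o branch the adenylyl cyclases Adcy6 (-0.59, FDR 0.000988), Adcy8 (-1.12, FDR 0.000988) and Adcy2 (-0.48, FDR 0.0457) were lower. Among scaffolds, Homer2, which ties group I receptors to the postsynaptic density, had 32.0 ± 12.8 CPM in SCA3 against 67.7 ± 27.6 CPM in wild-type (-1.08, SE 0.22, FDR 0.000439), while Grasp (Tamalin), a trafficking partner, was higher (0.66, FDR 0.0448). The receptor kinases Grk5 (-0.59, FDR 0.0075) and Adrbk2 (Grk3; -0.48, FDR 0.0229) were lower, as were Glul (-0.45, FDR 0.00164), the transporter Slc1a6 (-0.82, FDR 0.00562), the vesicular transporter Slc17a6 (-2.48, FDR 0.0317) and, in the endocannabinoid branch, Napepld (-0.74, FDR 0.03).

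Markers of several cell types also differed in striatum. Of the thalamic markers, which include Slc17a6, 12 of 12 were below 0 and 7 were called lower in SCA3 (score range 3.35 to 4.95 in SCA3 and 3.34 to 7.11 in wild-type). Astrocyte markers were below 0 in 12 of 12, with 5 called (6.84 to 7.44 and 7.07 to 8.06), and mature oligodendrocyte markers in 12 of 12, with 6 called (7.56 to 8.24 and 7.67 to 9.12). Projection neuron markers were above 0 in 12 of 12, with 0 called (9.04 to 9.63 and 7.60 to 9.68). The part of tissue make-up in the list genes was not tested. Without the 2 wild-type libraries of high thalamic score, 6 of the 67 genes were called (8.96%, beside 2.76% of all genes), all lower: Adcy2 (-0.56, FDR 0.0239), Adcy6 (-0.59, FDR 0.00415), Homer2 (-0.94, FDR 0.0109), Grk5 (-0.63, FDR 0.0138), Glul (-0.35, FDR 0.0311) and Slc1a6 (-0.75, FDR 0.0259). In that fit 11 of 12 astrocyte markers were below 0 and 0 were called by edgeR's likelihood ratio test (5 had an unadjusted p below 0.05). Of the 7 list genes no longer called, Adrbk2 (-0.40) and Trpc1 (0.15) kept most of their fold change, Grasp was at 0.42 and Adcy8 at -0.60, and Plcb4 (-0.58), Slc17a6 (-0.84) and Napepld (-0.18) were less than 0.5 times as far from 0 as before.

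For each receptor the genes with the most similar level over the 53 libraries were ranked by Pearson's r of log2 CPM, as a description, since the libraries share regions. The leading genes were Syt13 for Grm2 (0.91), Lrrc7 for Grm3 (0.94), Jup for Grm4 (0.97), D430019H16Rik for Grm5 (0.99), Grm5 itself for Grm7 (0.97) and Ccdc85a for Grm8 (0.91). With each group's mean taken out, which leaves the variation between mice and dissections, the leading genes were Syt13 again for Grm2 (0.87), Nin for Grm3 (0.72), Rap1gap for Grm4 (0.85), D430019H16Rik again for Grm5 (0.93), Csmd3 for Grm7 (0.76) and Tmem200a for Grm8 (0.80). Among the receptors themselves, Grm5 and Grm7 varied together most closely within groups (0.72), followed by Grm2 and Grm8 (0.56), and Grm4 and Grm8 ran most opposite (-0.49).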

How the data were processed

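The authors prepared poly-A selected, unstranded libraries, aligned paired reads uniquely to GRCm38 with STAR 2.3.0e, and took gene counts on RefSeq models from HTSeq 0.6.1, ignoring strand. They deposited raw counts, without normalisation, for the 12372 genes averaging above 4 CPM. From these counts, TMM-normalised CPM and tests were computed with edgeR 4.0.16 in R 4.3.3. As in the study's methods, a likelihood ratio test on a fit with 8 groups of region and genotype was used, with Benjamini-Hochberg adjustment over all genes and an FDR below 0.05 called. Logs used a prior count of 2. SE and 95% intervals come from the fit. Alternatives included edgeR's quasi-likelihood test, DESeq2 1.42.0, limma 3.58.1 voom, covariates, library subsets and leaving out each of 14 mice. Scripts were tested on simulated data.

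All receptors described were named in every region, and some items are not reported here. From the role lists, called genes were named with at most 3 per list and region. For each receptor the 3 most similar genes were ranked, and the first is given. The members, lists and rules were chosen with earlier results of these data known. Exon lengths come from GENCODE vM21, and the promoter sequence from RefSeq. Deviations from group means correlated within a mouse across regions (mean r 0.090 to 0.19 over 6 region pairs), and mouse identity comes from the labels.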

Additional observations from a re-analysis of the deposited data

How the results depend on the processing

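The brainstem difference of Grm3 was called in all alternatives run. The number of receptors called in brainstem, 1 in the main fit, was 2 in brainstem libraries alone, 3 there with the thalamic score as a covariate and 2 with the astrocyte score. In the combined test it fell from 2 to 1 with the quasi-likelihood test, limma-voom without and with the mouse as a replicate block, RIN as a covariate, a RIN of at least 7, and without the libraries of high thalamic score. Leaving out 1 mouse in turn gave 1 to 2 receptors in brainstem (2 without 9083375), 0 to 1 in striatum (1, Grm2, without 9082857, 9083371 or 9083514), 1 to 2 in the combined test, 0 to 1 for region dependence (1, Grm7, without 9082857 or 9083375, FDR 0.0464 and 0.0413) and 3 to 5 between brainstem and cortex (3 without 9083375), and no other such count moved by over 1.5 times. With the mouse as a fixed replicate block, region dependence still called 0 receptors, and no regional call was lost. No called difference changed direction. Among differences that were not called, the signs of these log2 values turned. In brainstem Grm2 became -0.11 and -0.12 in limma-voom without and with the replicate block, -0.035 with RIN as a covariate, -0.32 with the thalamic score, -0.53 with RIN in brainstem alone, -1.03 with the astrocyte score and -0.22 without libraries of high thalamic score. Grm4 became -0.18, -0.048 and -0.34 with RIN in brainstem alone, in the largest number series and with the astrocyte score. In cortex Grm4 became -0.043 with RIN and Grm2 0.0088 in the largest series. In striatum Grm5 became -0.018, -0.065 and -0.080 with the thalamic, astrocyte and projection neuron scores and Grm4 -0.024 with the projection neuron score. Leaving out 1 mouse, SCA3 differences ran from -0.34 to 0.29 for Grm2 in brainstem. In cortex they ran from -0.39 to 0.11 for Grm2, from -0.12 to 0.11 for Grm4, from -0.032 to 0.14 for Grm5, from -0.058 to 0.023 for Grm7 and from -0.0055 to 0.18 for Grm8. In wild-type mice, brainstem against striatum ran from -0.17 to 0.33 for Grm2, and was -0.082 without libraries of high thalamic score. The causes were not tested. The marker scores other than the thalamic and the removal of libraries were chosen after seeing the data.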
